A study of Bos taurus with 6 samples.

Results

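The genes of the calpain and cathepsin proteolytic systems, which act on muscle proteins after slaughter and are used as markers of beef tenderness, were examined in the longissimus dorsi muscle of 2 cattle breeds. The list held 10 genes, CAPN1, CAPN2, CAPN3, CAPNS1 and CAST of the calpain system and CTSB, CTSD, CTSL, CTSK and CTSS of the cathepsins, chosen by name and matched to the gene names of the deposited transcript files. Of these, 9 were matched among the 18010 genes of the files, and all 9 were expressed highly enough to be tested, with 1 FPKM or more as the mean of either breed, as were 9781 genes in all. FPKM counts sequenced fragments per kilobase of a transcript, scaled by the depth of the library, so it can be compared between genes of different length. CTSL, the gene of cathepsin L, was not analysed here.

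The samples came from 3 Shandong black cattle (B) and from 3 Luxi cattle (L), 18 months of age, and each animal gave one RNA-Seq library. The Shandong black breed was derived from Japanese black, Luxi and Bohai black animals, while Luxi is a local breed of yellow cattle. The animals of the breeds were supplied by different companies, so breed and supplier cannot be told apart. The labels do not give the sex of the animals. XIST, the RNA made from the inactive X chromosome of females, was found at 10.7, 4.83 and 14.0 FPKM in the Shandong black cattle and listed at 0, 0 and 0.207 in the Luxi cattle, so that a difference in sex between the groups and the difference in breed cannot be told apart either.

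Calpains are cysteine proteases that are switched on by calcium. Calpain 1 and calpain 2 each consist of their own large subunit, encoded by CAPN1 or CAPN2, and a shared small subunit encoded by CAPNS1, and both are blocked by calpastatin, the product of CAST. In aging meat, calpain 1 cleaves proteins that hold the myofibrils together, and a high calpastatin activity is known to go with tougher beef. Calpain 3 is a skeletal muscle calpain bound to titin that calpastatin does not block. Cathepsins are proteases of the lysosome, of which B, K, L and S are cysteine proteases and D is an aspartic protease.

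The depth of the libraries was 14.1 to 14.6 gigabases of aligned sequence in Shandong black cattle and 17.5 to 17.99 gigabases in Luxi cattle. Muscle markers were abundant in each animal, with 12 of 13 listed muscle fibre genes matched and a summed FPKM of 25387 to 76856. One library stood apart within its breed. On log2(FPKM + 1) over the genes tested, Luxi replicate 1 correlated with the other Luxi animals at r = 0.875 and 0.891, against 0.947 between those, and 0.933 to 0.966 among the Shandong black cattle. For the genes of the list whose values turn on this animal, the value without it is given too.

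No breed difference of the calpain and cathepsin genes passed the test in the full set of animals. With limma on log2(FPKM + 1) and Benjamini-Hochberg adjustment over all genes, 0 of the 9 genes were called, which took an adjusted p under 0.05 together with a log2 change of 1 or more in size, where 2.57% of all genes tested were called. At an unadjusted p under 0.05 it was 1 of 9 genes, CTSK, against 21.8% of all genes. CTSK entered the test only through its Shandong black mean, the breed in which it was high, so its count here and below is a description. Limma voom on estimated reads also called 0 of 9. The animals of the breeds did not overlap in 2 of 9 genes, CTSB with higher values in Luxi cattle and CTSK with lower ones, against 29.1% of all genes, 20.0% higher and 9.13% lower in Luxi cattle. Of the log2 fold changes, Luxi over Shandong black, 4 were above 0 and 5 below, where 62.5% of those of all genes were above 0, and their median was -0.10, beside 0.13 over all genes tested. With median-of-ratios size factors these medians were -0.25 and 0.02. The median size without sign was 0.35, beside 0.31 over all genes.

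**Figure D1:**
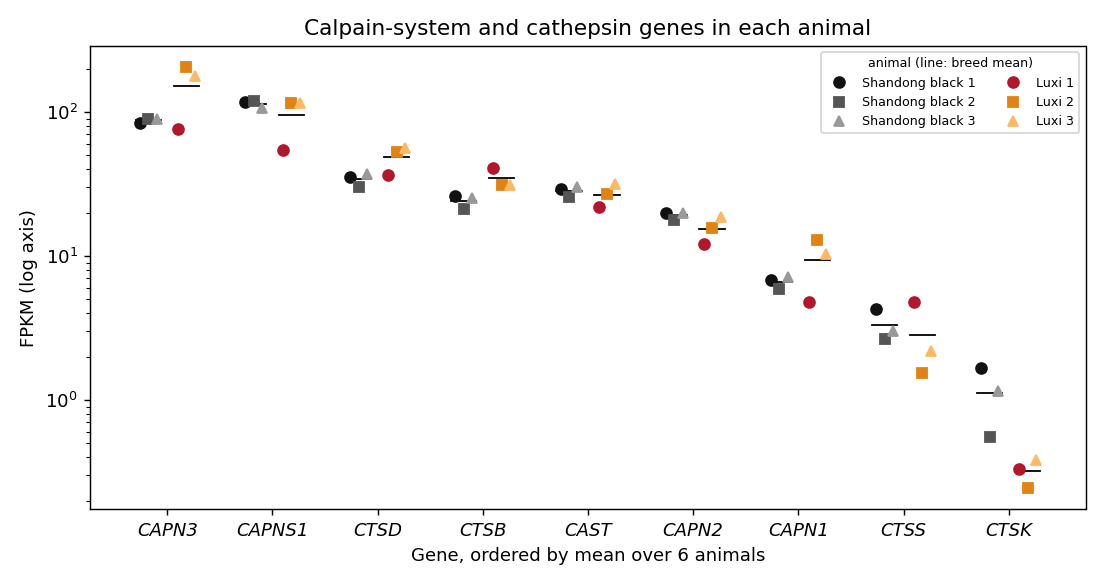
FPKM of each gene (y axis, log scale) in the 3 Shandong black cattle (grey) and the 3 Luxi cattle (coloured), with a line at the mean of each breed and the genes ordered along the x axis by their mean over the 6 animals. CAPN3 and CAPNS1 are the highest and CTSK the lowest, and Luxi replicate 1 (red circle) lies below the other animals in the 5 calpain-system genes.

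CAPN3 had the highest FPKM of the 9 genes by its mean over the 6 animals, followed by CAPNS1, CTSD, CTSB, CAST, CAPN2, CAPN1, CTSS and CTSK. The ranges of neighbours in this order overlapped except for CAST over CAPN2. CAST exceeded CAPN2 in 6 of 6 animals, and CAPN2 exceeded CAPN1 in 6 of 6, whereas CAPN3 exceeded CAPNS1 in 3 of 6 and CTSB exceeded CAST in 2 of 6. In bulk muscle, fewer cells of a type and less RNA per cell cannot be told apart in any of these levels.

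CAPN1, the large subunit of calpain 1, is encoded on chromosome 29 (ARS-UCD1.2, 43399871 to 43427419). Its FPKM was 6.78, 5.94 and 7.21 in Shandong black cattle and 4.78, 12.9 and 10.3 in Luxi cattle (6.64 ± 0.645 and 9.34 ± 4.15, mean ± SD, n = 3). Luxi replicates 2 and 3 were above all Shandong black cattle and Luxi replicate 1 was below them, so the breeds overlapped. Luxi over Shandong black, this gave a log2 fold change of 0.35 (SE 0.33, 95% interval -0.42 to 1.11, limma adjusted p = 0.566). Without Luxi replicate 1 it was 0.72 (SE 0.17, interval 0.30 to 1.14, limma adjusted p = 0.0546), without Luxi replicate 2 0.086 (limma adjusted p = 0.902) and without Luxi replicate 3 0.24 (limma adjusted p = 0.776). Median-of-ratios size factors gave 0.21 (limma adjusted p = 0.733) and quantile normalization 0.17 (limma adjusted p = 0.785).

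CAPN2, the large subunit of calpain 2, lies on chromosome 16 (27080007 to 27138329) and was more abundant than CAPN1. The FPKM was 19.8, 17.9 and 19.9 in Shandong black cattle and 12.2, 15.7 and 18.7 in Luxi cattle (19.2 ± 1.11 and 15.5 ± 3.29). Luxi replicates 1 and 2 were below the Shandong black range and replicate 3 was inside it. The breeds differed by a log2 fold change of -0.31 (SE 0.22, interval -0.82 to 0.21, limma adjusted p = 0.439), and by -0.15 (SE 0.17, interval -0.56 to 0.26, limma adjusted p = 0.566) without Luxi replicate 1. CAPN2 rested on a single transcript, rna45106. In 11 of its 21 exons the Luxi cattle were all lower than the Shandong black cattle and in 0 exons all higher. Over all genes tested with at least 8 exons in their main transcript, 10.7% of exons were lower in Luxi cattle without overlap and 13.0% higher. Since the exons of CAPN2 share the same transcript and animals, this count is a description. In its last exon, of 969 bases, the breeds overlapped, with a ratio of the Luxi to the Shandong black mean of 1.00.

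The shared small subunit, CAPNS1, on chromosome 18 (46800039 to 46805841), had an FPKM of 118, 119 and 107 in Shandong black cattle and of 54.2, 116 and 116 in Luxi cattle. All animals but Luxi replicate 1 lay between 107 and 119, and the log2 fold change of -0.34 (SE 0.36, interval -1.17 to 0.49, limma adjusted p = 0.608) became 0.022 without that animal. In each animal 97.8 to 98.2% of the CAPNS1 FPKM was on unnamed transcripts that StringTie assembled from the reads of that animal. The start found for these, 46799876, lies upstream of the annotated one, but it is not given animal by animal. Whether each animal had this start, or the 10 exons found with it, was not tested. The reference transcript alone gave 2.55, 2.39 and 2.06 in Shandong black cattle and 1.11, 2.21 and 2.08 in Luxi cattle, with the same animal lowest.

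CAPN3, the skeletal muscle calpain, is on chromosome 10 (37711275 to 37767447). Its FPKM was 84.6, 89.8 and 89.1 in Shandong black cattle, and 76.0, 206 and 177 in Luxi cattle (87.8 ± 2.81 and 153 ± 68.2). The Shandong black cattle lay close together, Luxi replicate 1 was below them, and Luxi replicates 2 and 3 were far above them. The log2 fold change was 0.67 (SE 0.40, interval -0.27 to 1.62, limma adjusted p = 0.366), with all 6 animals the largest in size of the 9 genes on log2(FPKM + 1), where CTSK, at -0.65, is understated. Without Luxi replicate 1 it was 1.11 (SE 0.19, interval 0.64 to 1.58, limma adjusted p = 0.0298), which passed both criteria as did 6.11% of the genes tested in that fit, and no other of the 9 genes did. Without Luxi replicate 2 it was 0.40 (limma adjusted p = 0.611) and without Luxi replicate 3 0.51 (limma adjusted p = 0.578).

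Almost all CAPN3 expression came from one transcript of 24 exons, rna30435, with 93.6 to 98.3% of the FPKM. The ratio of the Luxi to the Shandong black mean lay between 1.28 and 2.16 in all 24 exons, but the place of Luxi replicate 1 changed along the transcript. In exon 2 the coverage on the FPKM scale was 83.3, 76.3 and 88.8 in Shandong black cattle and 49.3, 177 and 161 in Luxi cattle, with Luxi replicate 1 below the Shandong black cattle. In the last exon, 24, it was above them (102, 125 and 100 against 134, 293 and 281). Exon 24 was the only exon of CAPN3 in which the breeds did not overlap.

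CAST, the gene of calpastatin, covers 96034228 to 96183530 of chromosome 7. Its FPKM was 29.3, 25.8 and 30.1 in Shandong black cattle and 21.8, 26.8 and 31.5 in Luxi cattle (28.4 ± 2.29 and 26.7 ± 4.86). Luxi replicate 1 was the lowest animal and Luxi replicate 3 the highest. The log2 fold change of -0.10 (SE 0.22, interval -0.62 to 0.42, limma adjusted p = 0.826) has an interval that spans changes from lower to higher. Without Luxi replicate 1 it was 0.034.

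The transcripts of CAST differ in where they start. Of its reference transcripts, 19 were seen in at least 1 animal, and rna24313, with 29 exons and a start at 96083280, inside the gene, held 69.1, 77.4 and 80.8% of the CAST FPKM in Shandong black cattle and 50.01, 69.2 and 74.5% in Luxi cattle. The share was lowest in Luxi replicate 1 and the breeds overlapped. Other transcripts held the rest, and which of them did so varied from animal to animal. Rna24299 reached 10.4% in Luxi replicate 1. Rna24300 held 21.9% in Luxi replicate 1 and 18.6% in Luxi replicate 3, but close to 0 in Luxi replicate 2, where rna24305 held 14.3% and rna24314 held 10.3%. StringTie was run on each animal alone, and the part of the assembly in these shares was not tested.

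CAPN1 was likewise spread over 3 reference transcripts with 22 exons each and starts at 43399871, 43400333 and 43400430. Rna74280 held 34.8 to 70.3% of the CAPN1 FPKM, rna74281 19.7 to 52.7% and rna74279 6.10 to 33.3%. Rna74281 was the leading transcript in Shandong black replicate 2 and rna74280 in the other 5 animals. The shares of each transcript overlapped between the breeds.

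**Figure D2:**
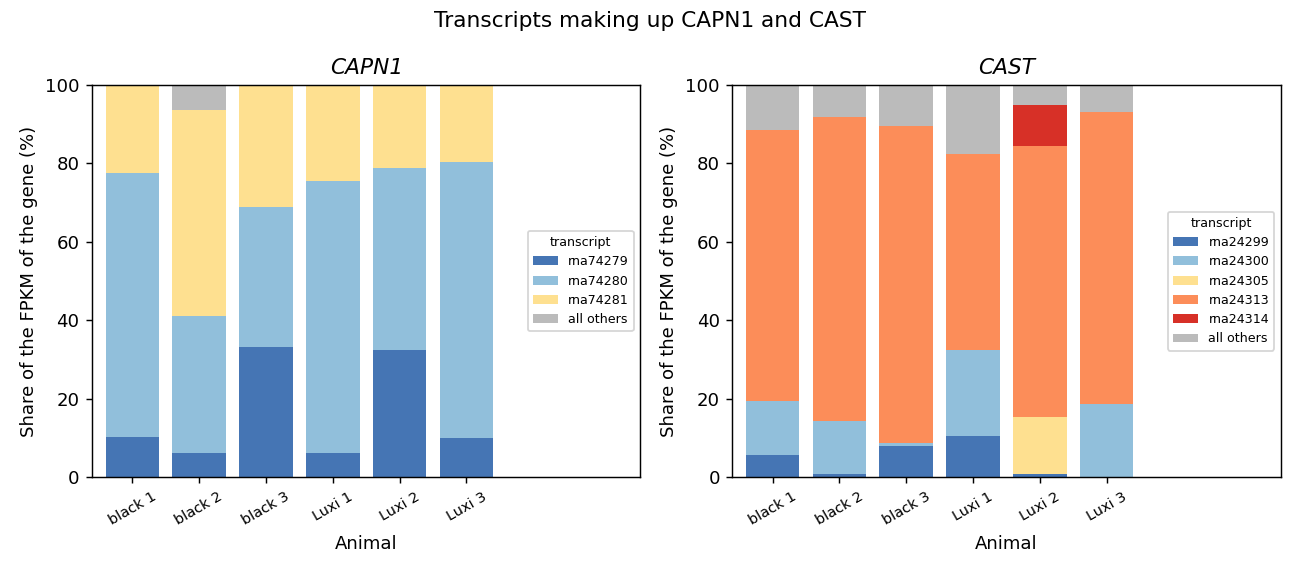
Share of the gene FPKM (y axis, %) held by each transcript of CAPN1 (left) and CAST (right) in the 6 animals (x axis), with transcripts of at least 10% in at least 1 animal in colour and the rest in grey. Rna24313 is the leading CAST transcript in each animal, at 50.01% in Luxi replicate 1 and 80.8% in Shandong black replicate 3.

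The calpain transcripts were set against CAST as the log2 ratio of each gene to CAST within an animal, which does not depend on the scaling of the library. Calpastatin does not block calpain 3, and CAPNS1 encodes the small subunit. Only the ratios of CAPN1 and CAPN2 therefore set a protease gene against that of its inhibitor. The CAPN1 ratio was -2.11, -2.12 and -2.06 in Shandong black cattle and -2.19, -1.05 and -1.61 in Luxi cattle. CAPN1 thus had about the same low ratio to CAST in all Shandong black cattle and Luxi replicate 1, and a higher one in Luxi replicates 2 and 3. The mean ratio was higher in Luxi cattle by 0.48 (exact two-sided permutation p = 0.4).

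The CAPN2 ratio to CAST, on the log2 scale, was -0.57, -0.53 and -0.60 in Shandong black cattle and -0.84, -0.77 and -0.75 in Luxi cattle. All 3 Luxi cattle were below all 3 Shandong black cattle, and Luxi replicate 1 did not stand apart. The difference was -0.22 (exact two-sided permutation p = 0.1, 0.2 adjusted over the 4 ratios). Among the ratios of all genes to CAST, 6.72% were lower in Luxi cattle without overlap.

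For CAPN3, the log2 ratio to CAST was 1.53, 1.80 and 1.56 in Shandong black cattle and 1.80, 2.94 and 2.49 in Luxi cattle. No animal of one breed fell inside the range of the other, but Shandong black replicate 2 and Luxi replicate 1 were equal to 2 decimals. The difference was 0.78 (exact two-sided permutation p = 0.1, 0.2 adjusted), and 24.1% of the ratios of all genes to CAST were higher in Luxi cattle without overlap.

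The CAPNS1 ratio overlapped, with 2.003, 2.20 and 1.83 in Shandong black cattle and 1.31, 2.11 and 1.88 in Luxi cattle, a difference of -0.24 (exact permutation p = 0.5). With 3 animals against 3 the exact test cannot give a p below 0.1, and this limit holds for each exact p in the text.

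**Figure D3:**
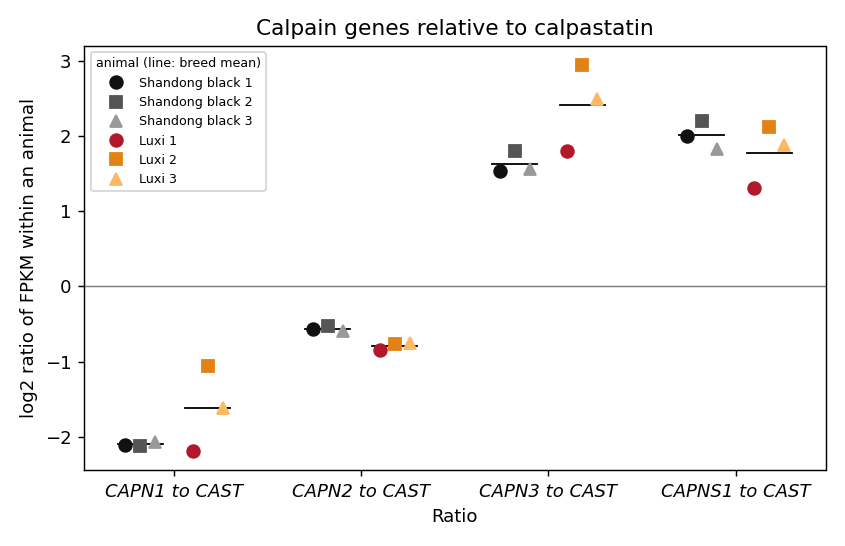
Log2 ratio of the FPKM of CAPN1, CAPN2, CAPN3 and CAPNS1 to that of CAST (y axis) in each animal, with a line at the breed mean. The 3 Luxi cattle lie below the 3 Shandong black cattle for CAPN2, from -0.84 to -0.75 against -0.60 to -0.53, and at or above them for CAPN3.

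CTSB, the gene of the lysosomal cysteine protease cathepsin B, is on chromosome 8 (7566077 to 7587043). Its FPKM was 26.1, 21.2 and 25.1 in Shandong black cattle and 41.2, 31.4 and 31.4 in Luxi cattle (24.1 ± 2.56 and 34.6 ± 5.68). All Luxi cattle were above all Shandong black cattle, with Luxi replicate 1 the highest. The log2 fold change was 0.50 (SE 0.22, interval -0.02 to 1.02), with an unadjusted limma p of 0.0580, an adjusted p of 0.244 and an exact permutation p of 0.1.

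The separation of the breeds in CTSB was seen in its last exon. The transcript rna24600, with 9 exons, held 97.5 to 99.3% of the FPKM. In its last exon, of 1056 bases, the coverage on the FPKM scale was 30.7, 25.5 and 29.3 in Shandong black cattle and 59.3, 40.6 and 41.0 in Luxi cattle, and this was the only one of the 9 exons in which the breeds did not overlap. Without the last exon of each transcript, a setting added after the data had been seen, the FPKM of CTSB was 20.6, 15.8 and 19.0 in Shandong black cattle and 19.8, 20.0 and 18.9 in Luxi cattle, with overlap and a log2 fold change near 0, at 0.09 (SE 0.19, limma adjusted p = 0.818).

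The same setting changed other genes of the list. Without last exons the breeds did not overlap in CAPN2, with 19.7, 17.99 and 20.3 in Shandong black cattle and 8.44, 15.3 and 17.95 in Luxi cattle, nor in CAPNS1, with 149, 148 and 146 in Shandong black cattle and 67.4, 133 and 127 in Luxi cattle. In CAPN2 the closest animals of the breeds were apart by less than 0.1 FPKM. Both genes were lower in Luxi cattle, as 10.7% of all genes then were without overlap, and neither passed the test, at log2 fold changes of -0.51 for CAPN2 (limma adjusted p = 0.335) and -0.50 for CAPNS1 (limma adjusted p = 0.400). CTSD became 46.0, 40.7 and 48.1 in Shandong black cattle and 43.4, 55.8 and 58.9 in Luxi cattle, with Luxi replicate 1 inside the Shandong black range and a log2 fold change of 0.22 (SE 0.22, limma adjusted p = 0.604) in place of the 0.47 of whole transcripts.

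The log2 ratios to CAST moved too. Without last exons that of CAPN2 was -0.78, -0.79 and -0.91 in Shandong black cattle and -1.63, -1.26 and -1.14 in Luxi cattle, still lower in all Luxi cattle but with Luxi replicate 1 the lowest, and the difference was -0.51 (exact permutation p = 0.1) in place of -0.22. The CAPN3 ratios then overlapped, at 1.27, 1.42 and 1.19 in Shandong black cattle and 1.31, 2.38 and 2.01 in Luxi cattle, a difference of 0.61 (exact permutation p = 0.2). The CAPNS1 ratios no longer overlapped, with a difference of -0.47 (exact permutation p = 0.1), and 9.40% of the ratios of all genes to CAST were then lower in Luxi cattle without overlap.

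CTSD encodes cathepsin D, the main aspartic protease of the lysosome, and lies on chromosome 29 (49712683 to 49722179). The FPKM was 35.4, 30.4 and 37.3 in Shandong black cattle and 36.4, 52.9 and 56.6 in Luxi cattle (34.4 ± 3.59 and 48.6 ± 10.7). Luxi replicates 2 and 3 were above the Shandong black range and Luxi replicate 1 was inside it. On log2(FPKM + 1) the breeds differed by 0.47 (SE 0.25, interval -0.13 to 1.06, limma adjusted p = 0.323), and 0.66 (SE 0.18, interval 0.22 to 1.11, limma adjusted p = 0.0723) without Luxi replicate 1.

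The exons of CTSD did not move together. Of the 9 exons of its main transcript, rna74896, which held 90.2 to 93.3% of the FPKM, exons 5, 6, 7 and 9 were higher in Luxi cattle without overlap, and exons 3 and 4 were lower. In exon 9, of 822 bases, the coverage was 17.6, 11.8 and 20.0 in Shandong black cattle and 24.2, 43.7 and 49.2 in Luxi cattle, a ratio of means of 2.37. The coverage of the 5' end of the transcript over that of its 3' end, each end taken as 33.3% of the bases, was 2.45, 3.67 and 2.45 in Shandong black cattle and 1.44, 0.923 and 0.855 in Luxi cattle. The profile of CTSD thus leaned to the 5' side in Shandong black cattle and was nearly even in Luxi replicates 2 and 3.

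**Figure D4:**
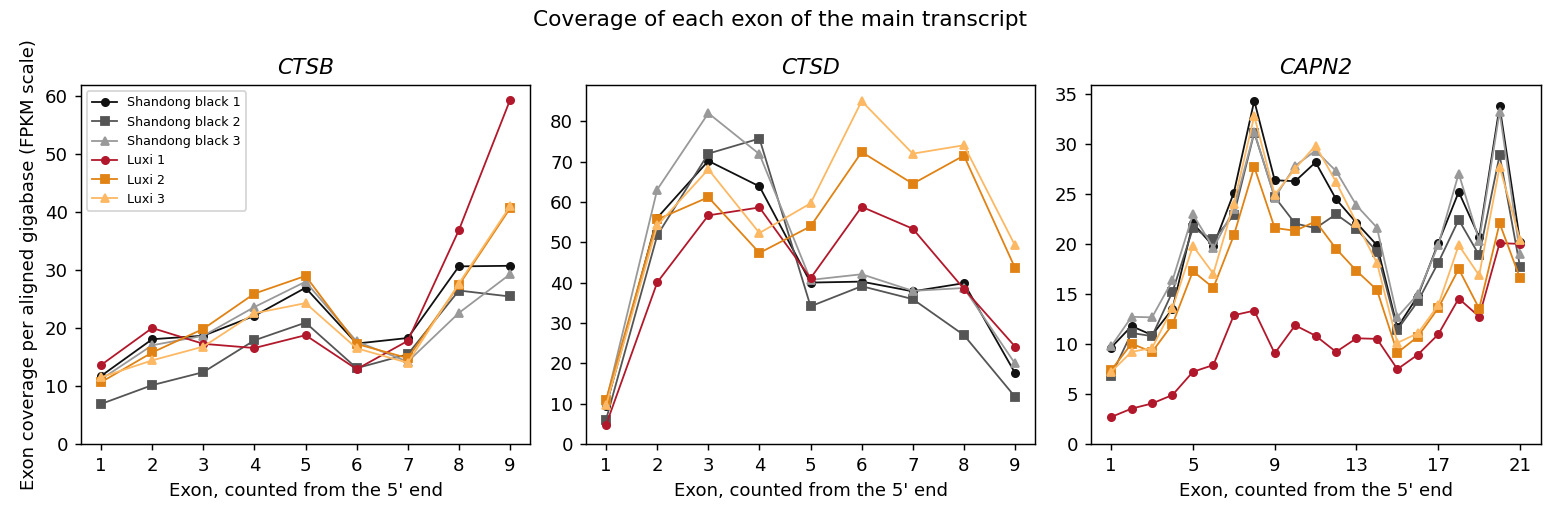
Coverage of each exon of the main transcript of CTSB, CTSD and CAPN2 (y axis, coverage per aligned gigabase, which is the FPKM scale) against the exon number from the 5' end (x axis), with a line for each of the 6 animals. The breeds part in exon 9 of CTSB and in both directions along CTSD, and Luxi replicate 1 (red) is low along CAPN2 up to exon 20 and inside the range of the other animals in exon 21.

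Coverage along the transcript differed between animals beyond these genes. Over 1007 genes with at least 8 exons and an FPKM of at least 5, the median of this ratio of the 5' to the 3' end was 1.26, 1.48 and 1.36 in Shandong black cattle and 1.15, 1.41 and 1.25 in Luxi cattle, and Luxi replicate 1 was the lowest of the 6 animals in 43.8% of the genes. In 23.0% of the genes the ratio was lower in Luxi cattle without overlap, and in 9.04% higher. Among the main reference transcripts of the 9 genes the ratio was lower in Luxi cattle without overlap in 4, those of CAPN3, CAPNS1, CTSB and CTSD, and higher in 0. For these 9 genes the same transcript was used in all animals, with no limit on FPKM. For the 1007 genes it was the transcript with the most FPKM in each library, so the shares are not measured alike. In CAPNS1 that transcript holds only a small part of the FPKM, as given above. In CAPN2 the breeds overlapped, with 0.719, 0.763 and 0.793 in Shandong black cattle and 0.275, 0.727 and 0.640 in Luxi cattle, and Luxi replicate 1 was far below the other animals. The part of RNA quality and of coverage in the levels of these genes was not tested.

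CTSK, the gene of cathepsin K, the collagen-cleaving protease best known from osteoclasts, is on chromosome 3 (19953196 to 19966059). It was the lowest of the 9 genes, with an FPKM of 1.67, 0.554 and 1.16 in Shandong black cattle and 0.335, 0.245 and 0.386 in Luxi cattle (1.13 ± 0.559 and 0.322 ± 0.0717). All Luxi cattle were below all Shandong black cattle, and their mean was 0.285 times that of the Shandong black cattle. The resulting log2 fold change was -0.65 (SE 0.23, interval -1.20 to -0.11, limma adjusted p = 0.162). Its Luxi mean is below the 1 FPKM of the filter and its Shandong black mean just above, so that the test was reached only through the breed with the higher values, and the difference is given as a description. All of its FPKM was on the reference transcript rna7826.

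On log2(FPKM + 1) the change of a gene near 1 FPKM is understated, and with a pseudocount of 0.1 the log2 fold change of CTSK was -1.44 (limma adjusted p = 0.164). In 7 of its 8 exons the Luxi cattle were lower without overlap, beside 10.7% of the exons of all genes tested with at least 8 exons in their main transcript. The ratio of the breed means lay between 0.215 and 0.403 in all 8. The exons share the same animals and a gene tested only through its Shandong black mean, so these values are a description too. The separation depends on which assembled transcripts are given to the gene. When transcripts that overlap CTSK by fewer than 50% of their bases were added, Shandong black replicate 3 rose to 1.64 and Luxi replicate 3 to 1.36, the breeds overlapped, and the log2 fold change was -0.49 (limma adjusted p = 0.408).

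CTSS, the gene of cathepsin S, a protease of antigen-presenting cells, is a neighbour of CTSK on chromosome 3 (19981495 to 20004549). The FPKM was 4.32, 2.66 and 3.01 in Shandong black cattle and 4.79, 1.54 and 2.18 in Luxi cattle (3.33 ± 0.875 and 2.83 ± 1.72). Luxi replicate 1 was the highest animal and Luxi replicates 2 and 3 were the lowest. Its main transcript, rna7829, held 66.1 to 100% of the FPKM. The lowest share was in Luxi replicate 2, where rna7827 held 17.1% and unnamed assembled sequence 16.8%, and rna7827 also held 10.9% in Shandong black replicate 3. The fitted log2 difference was -0.25 (SE 0.32, interval -0.998 to 0.503, limma adjusted p = 0.684), and -0.59 (SE 0.22, interval -1.12 to -0.06, limma adjusted p = 0.131) without Luxi replicate 1.

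**Figure D5:**
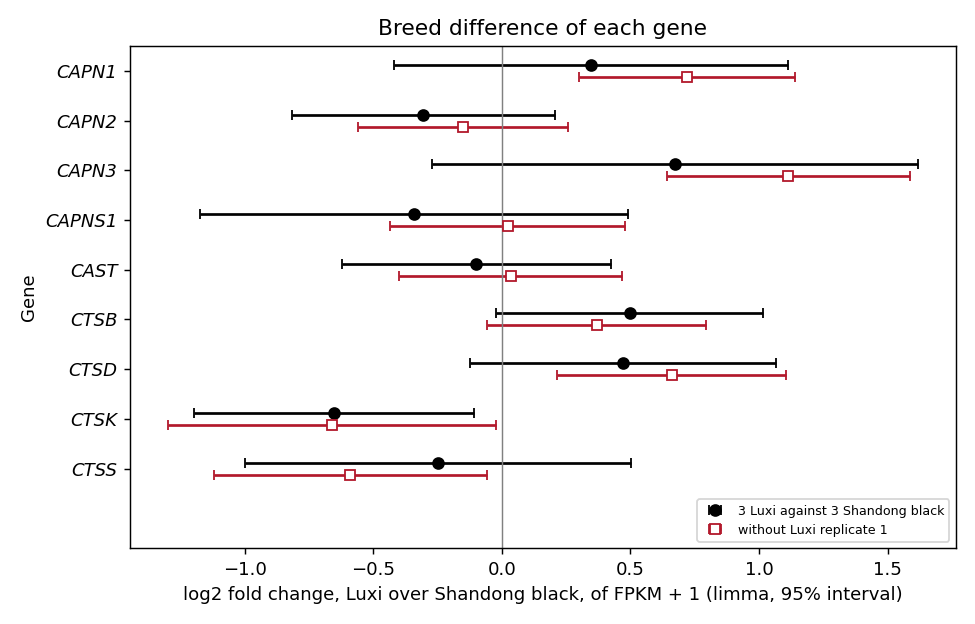
Log2 fold change of each gene, Luxi over Shandong black, on log2(FPKM + 1) with its 95% limma interval (x axis), for all 6 animals (filled) and without Luxi replicate 1 (open). With all animals the interval of CTSK, which entered the test only through its Shandong black mean, runs from -1.20 to -0.11 and those of the other 8 genes include 0. Without Luxi replicate 1 those of CAPN1, CAPN3, CTSD and CTSS leave out 0 as well.

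Luxi replicate 1 was the lowest of the 6 animals in all 5 calpain-system genes, as it was in 23.3% of all genes tested, and the highest in CTSB and CTSS, as in 23.2% of all genes. In CAPN1, CAPN3 and CTSS it lay beyond the Shandong black range on one side while both other Luxi cattle lay beyond it on the other, a pattern seen in the data that 9.34% of all genes showed for this animal. The SD between animals of a breed was larger in Luxi than in Shandong black cattle in 8 of the 9 genes. On log2(FPKM + 1) it was 8 of 9 as well, beside 68.2% of all genes. The summed FPKM of the 12 muscle fibre genes was 25387 in Luxi replicate 1, against 47351 to 76856 in the other 5 animals. ACTA1, the largest gene of this sum, was at 12237 in Luxi replicate 1, against 32188 to 54910 in the others. Luxi replicate 1 was also the lowest animal in CKM, DES and MYH7. It was the highest in NEB and inside the range of the other animals in the remaining genes. The part of muscle fibre RNA in the low calpain-system values was not tested.

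The genes whose FPKM was most like that of CAPN3 over the 6 animals were ZNF524 (Pearson r = 0.997 on log2(FPKM + 1)), COPS7A (r = 0.994) and IRX3 (r = 0.994). This is a description over 6 animals and 9781 genes. IRX3 was among the genes tested only through its Luxi mean. Its FPKM was 0.352, 0.487 and 0.407 in Shandong black cattle and 0.339, 1.41 and 1.32 in Luxi cattle. In COPS7A, a subunit of the COP9 signalosome, the FPKM was 11.2, 11.7 and 10.8 in Shandong black cattle and 9.75, 21.6 and 18.4 in Luxi cattle, with Luxi replicate 1 lowest as in CAPN3.

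Of the other calpains, 6 of 13 listed genes were matched and 4 tested, and none was called. At an unadjusted p under 0.05 there were 2, beside 21.8% of all genes. The median log2 fold change of the tested genes was 0.52. It is a description, since CAPN15 (0.31) entered the test only through its Luxi mean. That mean was 1.25 FPKM, against 0.759 in Shandong black cattle. CAPN7, an atypical calpain, had an FPKM of 2.46, 3.46 and 3.10 in Shandong black cattle and 4.296, 7.47 and 6.23 in Luxi cattle (log2 fold change 0.79, limma adjusted p = 0.104). CAPN6, a calpain without protease activity, had 2.86, 1.73 and 2.74 against 5.67, 4.04 and 4.31 (0.73, limma adjusted p = 0.106). In both genes all Luxi cattle were above all Shandong black cattle, as in 20.0% of all genes. Both were named for having the largest log2 fold changes of the list.

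The structural and regulatory proteins of the myofibril and its attachments that calpains are known to cut, or that change in aging meat, were followed in a list of 21 genes, of which 20 were matched and tested. It had 0 genes called higher and 1 called lower in Luxi cattle, with 8 log2 fold changes above 0, 12 below and a median of -0.10. At an unadjusted p under 0.05 there were 7 of 20, beside the 21.8% of all genes given above. The breeds did not overlap in 10 of 20, 4 higher and 6 lower in Luxi cattle, beside 29.1% of all genes, 20.0% higher and 9.13% lower. The gene called was TNNI1, the troponin I of slow fibres, with an FPKM of 438, 590 and 490 in Shandong black cattle and 88.3, 58.5 and 190 in Luxi cattle (log2 fold change -2.32, limma adjusted p = 0.0471). All Luxi cattle were below all Shandong black cattle, and the call was lost when Shandong black replicate 1, 2 or 3 or Luxi replicate 2 was left out, at -2.42, -2.21, -2.34 and -1.95 with limma adjusted p of 0.155, 0.110, 0.187 and 0.102, as in 9 of 18 alternatives in all (0.0298 to 0.192). Only 12.5% of the TNNI1 FPKM was on reference transcripts, and these alone gave -1.20 (limma adjusted p = 0.192). Of troponin genes of the list that were not called and are named after their values were seen, TNNI2 (2.12, limma adjusted p = 0.134) and TNNT3 (2.95, limma adjusted p = 0.101) of fast fibres had higher values and TNNT1 (-1.33, limma adjusted p = 0.284) of slow fibres lower ones, in each without overlap.

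The remaining cathepsins gave no call either. Of 11 listed genes, 8 were matched and 7 tested. At an unadjusted p under 0.05 there were 2, CTSH and LGMN, beside 21.8% of all genes. LGMN, named after its values were seen, is in the list but encodes legumain, which is not a cathepsin. The median of their log2 fold changes was -0.05. CTSC, which activates the serine proteases of immune cells, had an FPKM of 12.2, 4.29 and 9.44 in Shandong black cattle and 8.12, 2.69 and 2.74 in Luxi cattle (log2 fold change -0.84, limma adjusted p = 0.324). CTSH, an aminopeptidase, had 8.09, 6.11 and 8.09 against 2.60, 4.68 and 5.85 (-0.69, limma adjusted p = 0.192), with all Luxi cattle below all Shandong black cattle. Over the list, 2 genes were higher and 1 lower in Luxi cattle without overlap, beside 20.0% and 9.13% of all genes.

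Cystatins block cysteine cathepsins as calpastatin blocks calpains. Of 7 listed inhibitor genes, 5 were matched, 4 tested and 0 called, with 0 at an unadjusted p under 0.05 and a median log2 fold change of 0.28. The tested genes include SERPINB6 (0.05), which is not a cystatin. CST3, the gene of the secreted cystatin C, had an FPKM of 149, 171 and 180 in Shandong black cattle and 132, 290 and 339 in Luxi cattle (log2 fold change 0.50, limma adjusted p = 0.496). Luxi replicate 1 was the lowest animal here too, and the other Luxi cattle were the highest, and without it the log2 fold change was 0.92 (limma adjusted p = 0.0545). CST6, the gene of cystatin E/M, was at 0.536, 2.38 and 2.29 against 2.33, 1.71 and 12.1 (0.93, limma adjusted p = 0.406), and 0.22 without Luxi replicate 3, the highest animal.

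Nor was any other gene of the lysosome called. All 30 listed genes were matched and 28 were tested. At an unadjusted p under 0.05 there were 5, beside 21.8% of all genes. These were GNPTAB, LAMP2, TFEB, ATP6AP1 and SCARB2 (the last 3 named after their values were seen). In the list 15 log2 fold changes were above 0 and 13 below, where 62.5% of all genes were above 0, and the median was 0.01. GNPTAB, a subunit of the enzyme that makes the mannose 6-phosphate tag by which cathepsins are sent to the lysosome, had an FPKM of 14.9, 6.69 and 12.2 in Shandong black cattle and 4.65, 2.56 and 4.295 in Luxi cattle (log2 fold change -1.31, limma adjusted p = 0.0785). LAMP2, a lysosomal membrane protein, had 25.0, 25.5 and 20.6 against 31.0, 57.8 and 62.0 (1.00, limma adjusted p = 0.126). The breeds did not overlap in either gene. Over the list, 3 genes were higher and 3 lower in Luxi cattle without overlap, beside 20.0% and 9.13% of all genes. GNPTAB passed both criteria without Shandong black replicate 2 (-1.61, limma adjusted p = 0.0489) and LAMP2 without Luxi replicate 1 (1.31, limma adjusted p = 0.0192).

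Cathepsins K and S are also expressed by cells other than muscle fibres, and markers of such cells were examined. Of 12 macrophage markers, 11 were tested and 0 called, and 2 had an unadjusted p under 0.05, beside 21.8% of all genes. Of the log2 fold changes 2 were above 0 and 9 below, where 62.5% of all genes were above 0. The median was -0.36. The 2 above 0, TYROBP and CD14, entered the test only through their Luxi means. AIF1, below 0, entered only through its Shandong black mean, so these counts are a description. The summed FPKM of the 12 macrophage markers was 48.5, 39.2 and 53.4 in Shandong black cattle and 47.1, 27.4 and 20.4 in Luxi cattle. Luxi replicate 1, the highest of the 6 animals in CTSS, was the highest of the Luxi cattle in this sum but below Shandong black replicates 1 and 3. CD68, a defining marker, was at 0.183 to 0.754 in the 6 animals, and AIF1 was listed at 0 in Luxi replicate 3. The log2 fold changes were -0.66 for CSF1R (limma adjusted p = 0.145) and -1.43 for C1QA (limma adjusted p = 0.189). Limma voom on estimated reads called 0 genes in each of the lists of other calpains, other cathepsins, cystatins, lysosome, macrophage and muscle fibre genes. It also called 0 of the 20 genes cut by calpains or changed in aging meat (TNNI1, limma voom adjusted p = 0.0584), and in the lists of the next paragraph COL3A1 but not COL1A2 (0.0708), and FABP4 and PLIN1 but not ADIPOQ (0.0599) or CIDEC (0.0577).

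All 9 fibroblast and matrix genes were tested, with 2 called higher in Luxi cattle, COL3A1 (log2 fold change 2.94, limma adjusted p = 0.00733) and COL1A2 (1.67, limma adjusted p = 0.0322). The summed FPKM of the 9 genes was 132 to 229 in Shandong black cattle and 421 to 533 in Luxi cattle. They did not all go one way, with 7 log2 fold changes above 0 and 2 below. The breeds did not overlap in 4 genes higher and 2 lower in Luxi cattle, beside 20.0% and 9.13% of all genes. The 2 lower genes, named after their values were seen, were POSTN (-2.79, limma adjusted p = 0.126) and DPT (-0.39, limma adjusted p = 0.284). POSTN, with a Luxi mean of 0.273 FPKM, entered the test only through its Shandong black mean, so its count is a description. Its FPKM was 22.7, 0.806 and 15.0 in Shandong black cattle. All 5 adipocyte genes were tested and 4 were called lower in Luxi cattle, FABP4, ADIPOQ, PLIN1 and CIDEC, with a summed FPKM of 109 to 173 in Shandong black cattle and 2.04 to 17.3 in Luxi cattle. LEP, the fifth, was listed at 0 in Luxi replicate 1. PLIN1 and LEP, with Luxi means of 0.889 and 0.0396 FPKM, entered the test only through their Shandong black means. Among the muscle fibre genes 0 of 12 tested were called and 2 had an unadjusted p under 0.05, MYH2, a fast myosin (log2 fold change 3.57, limma adjusted p = 0.137, but 1.35 and 0.469 on its reference transcripts, which held 0.833% of its FPKM), and TNNT3, the troponin T of fast fibres (2.95, limma adjusted p = 0.101). Of the calls of fibroblast, matrix and adipocyte genes, only that of PLIN1 held when each animal was left out in turn (log2 fold change -3.17 to -2.85). That of COL3A1 was lost without Shandong black replicate 1 (2.95, limma adjusted p = 0.0506) or 3 (2.98, limma adjusted p = 0.0558), with log2 fold changes of 2.87 to 3.08 over the animals left out. Those of COL1A2, FABP4, ADIPOQ and CIDEC were also lost without either of these animals, with limma adjusted p of up to 0.132, 0.0934, 0.150 and 0.117 and the direction kept. FABP4 and CIDEC were lost without Luxi replicate 2 too, and COL1A2 and ADIPOQ without Shandong black replicate 2 or Luxi replicate 2 or 3. The part of the cell types and fibre types of the samples in the calpain and cathepsin values was not tested.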

How the data were processed

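Illumina reads were cleaned by the authors with Fastp and mapped with HISAT to ARS-UCD1.2, and StringTie was then run on each library alone, guided by the annotation and with a strand setting (version 1.3.3b per the file headers, while the Methods name another). They deposited the coverage, FPKM and TPM of each transcript, with the coverage of each exon. These are not whole-number counts, so count models and counting errors do not apply, and precision is set by the number of animals. Cuffdiff, the test of the study, works on alignments and was not run.

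The FPKM of a gene was computed as the sum of its reference transcripts and of the assembled transcripts without a gene name lying on its exons with 50% or more of their bases, on the same strand. The library protocol does not state that strand was kept, and whether the strand setting fits these libraries was not checked, so that values of genes that overlap on opposite strands are uncertain. Exon values are the coverage that StringTie gave to the exon of a transcript, per aligned gigabase. Other assembled transcripts, 21.6 to 29.8% of a library's FPKM, entered no gene. A transcript not listed in an animal was counted as 0. A symbol with more than 1 annotation entry was read from the entry with the highest mean. Genes with a breed mean of 1 FPKM or more were tested with limma 3.58.1 (lmFit, eBayes with trend) in R 4.3.3 on log2(FPKM + 1), a scale that understates the change of low genes, with Benjamini-Hochberg adjustment. The exact permutation tests used scipy 1.17.1 in Python 3.11.15. The breed and number of each animal came from the labels, and p-values measure the spread between these animals. In simulated data for this comparison and its 9781 genes, the procedure recovered 55.5% of 200 genes given a log2 change of 1.5 and 93.5% of 200 given a change of 3, and in both runs called 2 genes that had none. The changed genes were drawn from those with a mean log2(FPKM + 1) above 2, and the change was added on that scale. The recovery therefore does not cover low genes such as CTSK.

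The 10 genes and all lists were chosen with earlier results of these data known. Of each list, the text names the called genes (at most 4 by size), or with none called the 2 with the largest log2 fold change, XIST, the 3 genes most like the member of the largest change on log2(FPKM + 1), and transcripts holding at least 10% of a gene in at least 1 animal. The alternatives were a pseudocount of 0.1, no filter, a mean FPKM of at least 5, TPM, size factors, quantile normalization, no trend, limma voom on reads estimated from coverage, a replicate block, other rules for assembled transcripts, any fold change, and leaving out each animal in turn. Leaving out the last exon was added after the data had been seen.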

Additional observations from a re-analysis of the deposited data

How the results depend on the processing

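The number of genes called, 251, was 63 without a filter on FPKM, 134 with a mean FPKM of at least 5, 91 with limma voom, 163 with reference transcripts only, and 3 to 593 when each animal was left out (10 without Shandong black replicate 1, 3 without Shandong black replicate 3, 593 without Luxi replicate 1, 44 and 86 without Luxi replicates 2 and 3). Of the calpain and cathepsin genes, 0 were called in 18 of 19 alternatives and 1, CAPN3, without Luxi replicate 1, so that this count was 0 to 1 over the animals left out. The log2 fold change changed sign in CAPNS1 (0.022) and CAST (0.034) without Luxi replicate 1 and in CTSS (0.0052) without Luxi replicate 2, the highest values over the animals left out, of which the lowest were -0.52, -0.22 and -0.59. The log2 ratios to CAST kept their direction in all 11 alternatives run for each (without last exons 0.34, -0.51, 0.61 and -0.47 for CAPN1, CAPN2, CAPN3 and CAPNS1), at 0.20 to 0.77 for CAPN1, -0.24 to -0.19 for CAPN2, 0.52 to 1.09 for CAPN3 and -0.41 to -0.01 for CAPNS1 over the animals left out. CTSK was below the filter, and so had no value, without Shandong black replicate 1, without last exons and at a mean FPKM of at least 5.

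With the replicate number as a block, 135 genes and 0 of the 9 genes were called. The deviations of same-numbered animals from their breed means correlated at r = 0.084, 0.087 and 0.075, none above 0.1, and the animals share only a number. Each animal correlated best with the one of its own number in the other breed, a hint from the data only. Without counts no counting error can be given, and CTSK, near 1 FPKM, had the least signal.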
